A study of Mus musculus with 14 samples.

Results

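Expression of 9 genes of the interferon response was followed in RNA-seq of isolated mouse colon epithelium. The 9 are Stat2, Irf1, Irf7, Irf8, Irf9, Gbp2, Gbp3, Igtp and Irgm1, that is 1 STAT, 4 interferon regulatory factors and 4 interferon-inducible GTPases. They were picked by symbol from the 37680 genes of the count table, each symbol matched 1 gene, and all 9 passed the filter on low counts that 15127 genes passed. The 14 libraries came from adult mice of 2 genotypes, WT and Smad4 knockout (Smad4 IEC-KO), kept on water or given 2.5% dextran sulfate sodium (DSS), a detergent-like sugar polymer that injures the colon lining, in the drinking water for 3 d. There were 4 WT and 4 Smad4 IEC-KO libraries on water, and 3 of each after DSS. In the knockout, floxed Smad4 alleles (Smad4 f/f) were recombined by Villin-CreERT2, a tamoxifen-induced Cre made in intestinal epithelial cells, so that other cells keep Smad4. Which of these alleles the mice labelled WT carried, and whether they received tamoxifen, is not stated sample by sample in the sources used here. The crypts were freed from the whole colon with EDTA and RNA was made into poly(A)-enriched libraries. The labels call the libraries replicates without naming the animals, so p-values measure the spread between libraries.

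Interferons are secreted proteins that act through JAK kinases and STAT factors. Type I and type III interferons bring STAT2 and IRF9 together in a complex, ISGF3, that binds the interferon-stimulated response element (ISRE), whereas the response to interferon-gamma runs mainly through the gamma-activated site (GAS). IRF7 amplifies type I interferon output, and IRF1 and IRF8 carry interferon-gamma programs. The guanylate-binding proteins (Gbp2, Gbp3) and immunity-related GTPases (Igtp, Irgm1) take part in the defense against microbes held in vacuoles and in autophagy. In the gut epithelium these programs are part of the barrier to viruses and intracellular microbes.

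The libraries held 12882827 to 26087231 counts. Smad4, the targeted gene, was at 118 to 159 CPM (read counts scaled to library size, with TMM factors over all libraries) in WT on water, 170 to 182 in WT after DSS, 40.4 to 43.9 in Smad4 IEC-KO after DSS and 35.1 to 46.8 in 3 Smad4 IEC-KO libraries on water. The library labelled replicate 1 of Smad4 IEC-KO on water was at 158, inside the WT range. It stays in its labelled group, whose mean Smad4 was 69.2 CPM with it and 39.6 without it. The paper's figure legends give 3 replicates for Smad4 IEC-KO on water without naming them, while 4 libraries carry that label. Values without this library are given where they matter. Library names start with D, Z or M, whose meaning the labels do not give. Some carry a second letter: MP for replicate 4 of WT and of Smad4 IEC-KO on water, MS for Smad4 IEC-KO water replicate 3 and ZH for WT DSS replicate 3. Only the first letter was used. WT water holds 2 D, 1 Z and 1 M library, Smad4 IEC-KO water 2 Z and 2 M, WT DSS 2 D and 1 Z, and Smad4 IEC-KO DSS 3 D. Mitochondrial transcripts took 30.6% and 32.8% of the counts in WT water replicates 3 and 4 and 21.4% in Smad4 IEC-KO water replicate 4, against 4.05% to 8.23% elsewhere. The 10 epithelial markers were present in every group and summed to 13147 to 21286 CPM per library. The 3 leukocyte markers (Ptprc, Coro1a, Laptm5) summed to 8.11 to 30.5 CPM. In bulk RNA, fewer cells of a type and less RNA per cell cannot be told apart.

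Stat2, the STAT that is particular to ISGF3 (chromosome 10, 127707629 to 127729905, + strand, mm9), was at 74.0, 71.7, 98.9 and 137 CPM in the 4 WT water libraries and at 57.1, 60.4, 73.3 and 94.3 in the Smad4 IEC-KO water libraries. After DSS it was at 90.7, 90.2 and 91.9 CPM in WT and at 61.5, 69.0 and 67.6 in Smad4 IEC-KO. The 3 Smad4 IEC-KO DSS libraries lay below all the WT libraries on either treatment, while the water groups overlapped. Irf9, the DNA-binding subunit of ISGF3 (chromosome 14, 56222408 to 56228867, + strand), was at 66.1, 70.7, 51.1 and 84.9 CPM in WT on water and 57.8, 53.3, 64.6 and 69.8 in Smad4 IEC-KO on water. After DSS its values were 70.8, 64.4 and 64.0 CPM in WT and 45.3, 60.0 and 55.8 in Smad4 IEC-KO, with no overlap between the genotypes. Its 3 Smad4 IEC-KO DSS values included the lowest of the 14.

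Irf7 (chromosome 7, 148448605 to 148452380, − strand) varied most of the 9. It was at 164, 126, 146 and 313 CPM in WT on water and at 78.1, 39.0, 77.1 and 133 in Smad4 IEC-KO on water. After DSS it was at 109, 80.0 and 117 CPM in WT and at 43.6, 55.9 and 70.5 in Smad4 IEC-KO. Its highest value was that of WT water replicate 4, which also had the highest Stat2 and Irf9 and the lowest Gbp2 of the 14 libraries and the largest mitochondrial share. Without that library the WT water mean of Irf7 was 145 CPM instead of 187. The highest library held 8.02 times the level of the lowest.

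Irf1, a first-wave factor of the interferon-gamma response (chromosome 11, 53583516 to 53591876, + strand), was at 225, 240.2, 227 and 172 CPM in WT on water and at 176, 158, 182 and 217 in Smad4 IEC-KO on water. After DSS it was at 287, 278 and 288 CPM in WT and at 293, 241 and 242 in Smad4 IEC-KO. All 6 DSS libraries lay above all 8 water libraries. Irf8 is best known from myeloid and B cells, where it directs lineage choice (chromosome 8, 123260258 to 123280594, + strand). It was at 143, 123, 168 and 165 CPM in WT on water, 103, 111, 134 and 122 in Smad4 IEC-KO on water, 199, 191 and 200.3 in WT after DSS, and 162, 178 and 172 in Smad4 IEC-KO after DSS. The genotypes did not overlap after DSS, and within each genotype the DSS libraries lay above the water libraries. Irf8 ran from 103 to 200.3 CPM over the libraries. The 10 macrophage, monocyte and dendritic cell markers summed to 8.45 to 20.5 CPM per library, and the 6 B and plasma cell markers to 1.61 to 25.3 CPM. CPM are not scaled to gene length, and which cells the Irf8 counts came from was not tested. The 4 markers of plasmacytoid dendritic cells, which also use Irf8, summed to 62.7 to 92.3 CPM, most of it Tcf4 and Bst2, while Siglech, the defining marker, had at most 9 counts in a library.

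Among the GTPases, Gbp2 (chromosome 3, 142283566 to 142300972, + strand), a guanylate-binding protein that coats microbial vacuoles, was at 47.6, 51.1, 82.9 and 24.6 CPM in WT on water and at 47.6, 36.8, 78.5 and 53.6 in Smad4 IEC-KO on water. After DSS it was at 97.2, 72.9 and 134 CPM in WT and at 72.7, 52.3 and 56.4 in Smad4 IEC-KO. The DSS groups did not overlap but nearly met, at 72.9 and 72.7 CPM. Igtp (Irgm3; chromosome 11, 58013058 to 58021093, + strand), an immunity-related GTPase, was at 73.5, 47.7, 64.7 and 44.6 CPM in WT on water and 42.5, 53.2, 68.0 and 82.9 in Smad4 IEC-KO on water. After DSS it was at 90.2, 89.2 and 118 CPM in WT and 102, 79.8 and 84.3 in Smad4 IEC-KO, so that the genotypes overlapped under either treatment. Gbp3 (chromosome 3, 142223016 to 142236173, + strand) ran from 12.5 to 31.7 CPM over the 14 libraries, and its highest 2 values were in WT after DSS. Irgm1 (chromosome 11, 48675470 to 48685185, − strand), a regulatory GTPase of the family and a factor in autophagy, moved least, from 84.6 to 128 CPM, with 125, 114 and 128 in WT and 96.8, 98.8 and 102 in Smad4 IEC-KO after DSS.

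**Figure D1:**
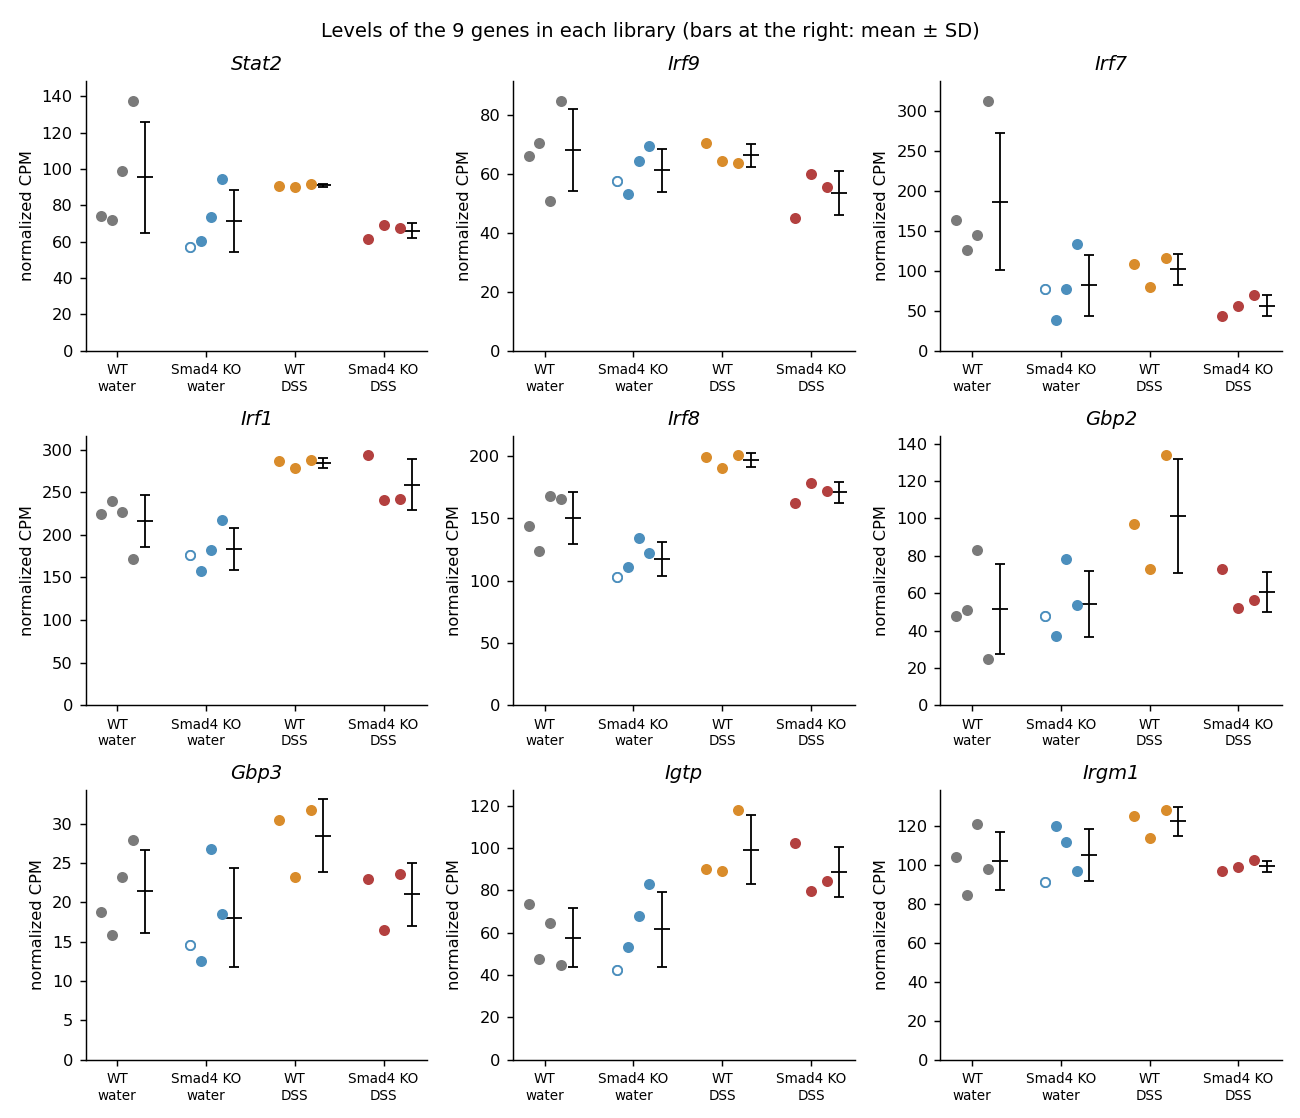
CPM (TMM-scaled counts, y axis, linear, from 0) of each gene in each library, by group, with the mean and SD at the right of each group and n = 4, 4, 3 and 3. The open circle is the library labelled replicate 1 of Smad4 IEC-KO on water, whose Smad4 level lay in the WT range. The Smad4 IEC-KO DSS points of Stat2 and Irf7 lie below all WT points, and the DSS points of Irf1 lie above all water points.

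Per kilobase of annotated exon, which allows only a rough comparison between genes, Irf1 had the highest mean level (58.0 CPM per kb), followed by Igtp (36.8), Irf7 (36.7), Gbp2 (25.8), Irf8 (22.0), Stat2 (18.4), Irgm1 (18.3), Irf9 (11.7) and Gbp3 (6.76). The length used joins the exons of all annotated transcripts of a gene (5386 bases for Irf9). It can exceed that of the transcripts present, so the order depends on the annotation too. Igtp and Irf7, and likewise Stat2 and Irgm1, differed by less than their spread over libraries. Every member had at least 210 counts in every library. Members of the GBP and immunity-related GTPase families resemble each other in sequence, so reads may be split between paralogs and their values are uncertain to that extent. Irf1, Irf7, Irf8 and Irf9 each overlap another annotated gene (Gm17334, Phrf1, Gm20388 and Rnf31), and the sources used here do not say whether counting used strand.

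The first comparison asked how the epithelium without Smad4 differed from WT after 3 d of DSS. The mean of each of the 9 genes was lower in Smad4 IEC-KO, with log2 fold changes from -0.85 (Irf7) to -0.13 (Irf1) and a median of -0.30, against a median of 0.00283 over all genes tested. Stat2 fell: its mean was 90.9 ± 0.897 CPM (SD, n = 3) in WT and 66.0 ± 4.01 (n = 3) in Smad4 IEC-KO, a log2 fold change of -0.46 (SE 0.086, adjusted p = 0.0496, edgeR quasi-likelihood test with Benjamini-Hochberg adjustment). It was the only member of the 9 to pass the threshold of 0.05, which 63 of the 15127 genes passed in this direction (0.416%) and 113 in either (0.747%). The call stood at the threshold: leaving out any 1 of the 6 libraries gave an edgeR adjusted p of 0.0966 to 0.183. The 9 genes and this fit of 2 groups were chosen with earlier results of these data known. Fitting all 14 libraries in 1 model instead, where 2 genes passed (0.0132%), gave 0.999 in edgeR. With the name letter as a term in that model, where again 2 genes passed, the edgeR adjusted p of Stat2 was 0.871.

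Irf7 had the largest difference, with 102 ± 19.4 CPM in WT and 56.6 ± 13.5 in Smad4 IEC-KO (log2 fold change -0.85, SE 0.18, edgeR adjusted p = 0.0840). Irf9, the partner of Stat2 in ISGF3, was at 66.4 ± 3.81 and 53.7 ± 7.58 CPM (-0.30, SE 0.12, edgeR adjusted p = 0.264), with -0.19 when Smad4 IEC-KO DSS replicate 1 was left out. Gbp2 was at 101 ± 30.6 CPM in WT and 60.5 ± 10.8 in Smad4 IEC-KO (-0.74, SE 0.21, edgeR adjusted p = 0.149), and without WT DSS replicate 3, its highest library, the difference was -0.49. DESeq2 on the same 6 libraries called Stat2 (adjusted p = 0.00230), Irf7 (0.000451) and Gbp2 (0.00868), among 300 genes called lower (1.98%) and 499 in all (3.3%).

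The other members differed by less. Gbp3 was at 28.5 ± 4.63 CPM in WT and 21.0 ± 3.97 in Smad4 IEC-KO (log2 fold change -0.43), Irgm1 at 122 ± 7.62 and 99.2 ± 2.75 (-0.30), Irf8 at 197 ± 5.25 and 171 ± 8.32 (-0.20), Igtp at 99.1 ± 16.3 and 88.8 ± 11.9 (-0.16), and Irf1 at 284 ± 5.48 and 259 ± 29.6 (-0.13), all with edgeR adjusted p of 0.169 or above. With a library left out the log2 fold change ran from -0.56 to -0.28 for Gbp3 (the latter without Smad4 IEC-KO DSS replicate 2), from -0.27 to -0.011 for Igtp (without Smad4 IEC-KO DSS replicate 1 and WT DSS replicate 3) and from -0.23 to -0.082 for Irf1 (without Smad4 IEC-KO DSS replicates 1 and 2). Unadjusted p was under 0.05 for 7 of the 9, against 15.4% of all genes tested. Stat2, Irf7, Irf8, Irf9, Gbp2 and Irgm1, 6 of the 9, had every Smad4 IEC-KO library below every WT library, which 11.4% of all genes showed. Since the 9 genes were chosen with earlier results of these data known, these shares describe them and are no test.

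The 3 Smad4 IEC-KO DSS libraries have names in D, as do WT DSS replicates 1 and 2. Against those 2 alone the differences were -0.45 for Stat2, -0.74 for Irf7, -0.33 for Irf9, -0.49 for Gbp2 and -0.011 for Igtp, and no member passed the edgeR threshold, which 42 genes did (0.278%). The marker sums of other cells were small beside those of the epithelium but not equal between the genotypes. The 6 fibroblast markers summed to 7.21 to 12.97 CPM in Smad4 IEC-KO and 0.276 to 1.89 in WT after DSS, where Lum was at 0 throughout, and the 4 neutrophil markers, mostly S100a8 and S100a9, which epithelium can make too, summed to 9.19 to 20.2 and 0.965 to 2.61. The B and plasma cell markers summed to 3.05 to 5.02 and 1.61 to 2.36 CPM. Lower in Smad4 IEC-KO was the plasmacytoid dendritic cell list, at 65.1 to 67.7 CPM against 70.4 to 83.8 in WT. Most of that sum is Tcf4 and Bst2, and Siglech had at most 9 counts in a library, so it does not measure the number of these cells. The 5 endothelial markers were lower too, at 0.366 to 0.788 CPM against 1.19 to 1.35, with Emcn and Kdr at 0 in all 6 libraries. The leukocyte, T and NK cell, macrophage, monocyte and dendritic cell, and smooth muscle lists overlapped between the genotypes, the leukocyte markers at 15.3 to 23.4 CPM in Smad4 IEC-KO and 12.4 to 27.2 in WT. The part of these cells in the differences was not tested.

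**Figure D2:**
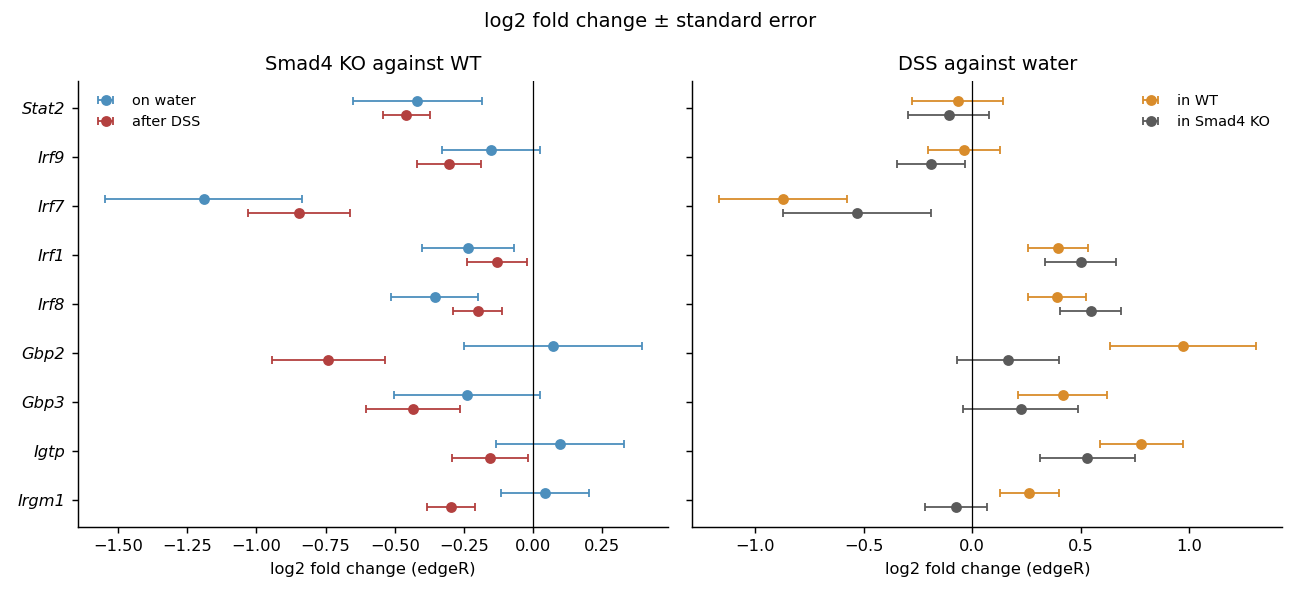
Log2 fold change (x axis) with its standard error from the edgeR fit of each pair of groups, for the 9 genes (y axis). Left, Smad4 IEC-KO against WT on water (n = 4 and 4) and after DSS (n = 3 and 3), and right, DSS against water in WT (n = 3 and 4) and in Smad4 IEC-KO (n = 3 and 4). All 9 points after DSS lie left of 0 in the left panel, while only Irf7, Stat2 and Irf9 lie left of 0 in WT in the right panel.

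Of the 9 members, 7 carry a match to either of the 2 interferon elements in the 250 bases before an annotated start. The ISRE core was searched as TTTC, 2 bases of any kind and TTTC, and the GAS as TTC, 3 bases of any kind and GAA, which reads the same on both strands. Both strands were searched in 13 RefSeq promoters of the 9 genes (GRCm38.p6). The ISRE core stood in 5 of the 13, of Stat2, Gbp2, Gbp3, Igtp and Irgm1, and in 2.98% of all 32851 promoters. The GAS stood in 3 of the 13, of Irf1, Irf8 and Igtp, and in 7.02% of all. Promoters with either came to 7 of the 13 and to 9.66% of all. No match was found for Irf7 or Irf9 in this window. The stretches around the matches are shown 5′ to 3′ along the gene, so that the kinds of element and their arrangement in the STAT and IRF genes and in the GTPases can be compared, with the matched letters in capitals.
Stat2: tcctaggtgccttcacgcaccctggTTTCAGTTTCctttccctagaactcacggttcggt
Gbp2: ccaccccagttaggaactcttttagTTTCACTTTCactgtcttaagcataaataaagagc
Gbp3: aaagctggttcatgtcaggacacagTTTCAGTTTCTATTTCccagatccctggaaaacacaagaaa
Irgm1: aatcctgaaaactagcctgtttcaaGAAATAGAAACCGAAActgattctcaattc
Igtp: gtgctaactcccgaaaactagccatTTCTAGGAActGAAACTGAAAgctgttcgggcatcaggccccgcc
Irf1: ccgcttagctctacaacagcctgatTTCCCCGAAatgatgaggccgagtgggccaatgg
Irf8: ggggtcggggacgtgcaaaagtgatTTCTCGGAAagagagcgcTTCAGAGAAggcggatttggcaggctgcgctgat

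These stretches lie at chr10:128270251-128270310 (+), chr3:142620579-142620638 (+), chr3:142559974-142560039 (+), chr11:48871421-48871475 (−), chr11:58199486-58199555 (+), chr11:53769899-53769957 (+) and chr8:120736162-120736238 (+) of GRCm38.p6, in the same order. In Gbp3 and Irgm1 a pair of ISRE cores overlapped, Irf8 held a pair of GAS matches, and Igtp held a GAS 2 bases before an ISRE core read on the other strand. Counted from the first transcribed base at 0, the ISRE cores of the 4 GTPases began at -59 (Gbp2), -45 and -39 (Gbp3), -34 (Igtp) and -30 and -24 (Irgm1), and that of Stat2 at -222.

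**Figure D3:**
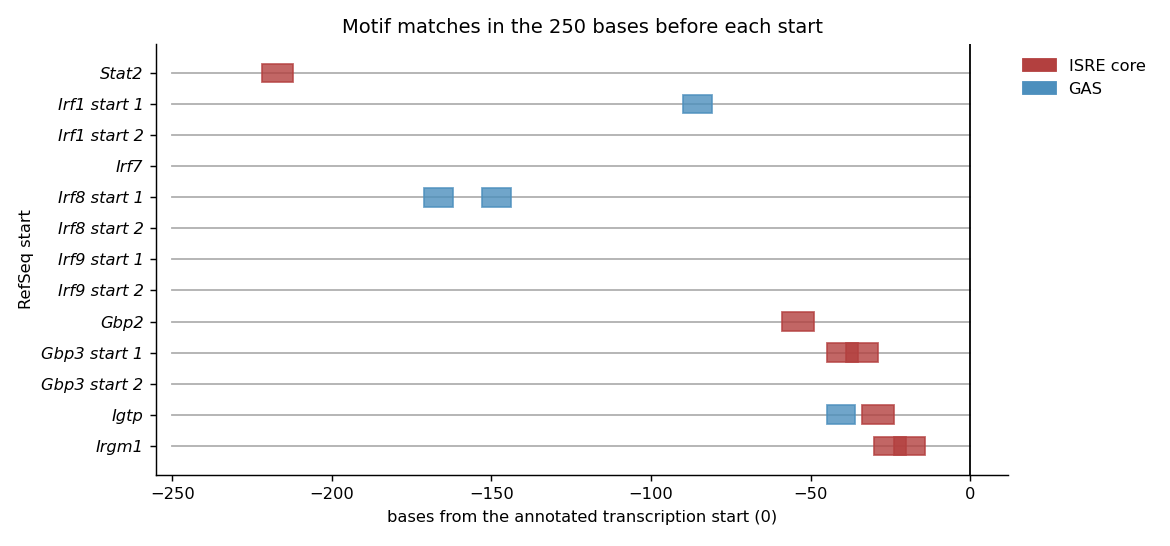
Matches to the ISRE core (red) and the GAS (blue) in the 250 bases before each of the 13 RefSeq starts of the 9 genes, with distance from the first transcribed base (0) on the x axis and a line for each start. The ISRE matches of Gbp2, Gbp3, Igtp and Irgm1 and the GAS match of Igtp lie nearest to the start, and the ISRE match of Stat2 and the GAS matches of Irf1 and Irf8 lie farther out.

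On water, Irf7 stood lowest in Smad4 IEC-KO relative to WT. Its mean was 187 ± 85.4 CPM in WT (SD, n = 4) and 81.9 ± 38.8 in Smad4 IEC-KO (n = 4), a log2 fold change of -1.19 (SE 0.36, edgeR adjusted p = 0.157). No member passed the threshold, as only 1 gene did in all (0.00661%), the ribosomal protein gene Rpl34, named here after its values were seen. Unadjusted p was under 0.05 for Irf7 and Irf8, 2 of the 9, against 20.4% of all genes tested. Stat2 was at 95.5 ± 30.5 and 71.3 ± 16.9 CPM (-0.42, SE 0.23, and -0.19 without WT water replicate 4), Irf8 at 150.02 ± 20.9 and 117 ± 13.6 (-0.36, SE 0.16), and Irf1 at 216 ± 30.3 and 183 ± 24.7 (-0.24, SE 0.17). For Gbp3 the log2 fold change was -0.24, for Irf9 -0.15, for Igtp 0.095, for Gbp2 0.070 and for Irgm1 0.042, each smaller than its standard error, and the last 3 changed sign when single libraries were left out. Without the library labelled replicate 1 of Smad4 IEC-KO, Igtp was at 0.24, Gbp2 at 0.13, Irgm1 at 0.11 and Gbp3 at -0.14. No member had groups without overlap, against 5.2% of genes that were lower and 5.18% that were higher in every Smad4 IEC-KO library.

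For Irf7 on water the call turned on the fit. With all 14 libraries in 1 model its adjusted p was 0.0391 in edgeR, where 1276 genes passed (8.44%), and DESeq2 on the 8 water libraries gave 0.0221, where 768 passed (5.08%). With the library labelled replicate 1 of Smad4 IEC-KO on water left out of the 14, the edgeR adjusted p was 0.0614, and without Smad4 IEC-KO water replicate 4 in the fit of the water libraries it was 0.0286. Leaving out WT water replicate 4 brought the log2 fold change to -0.83. Among water libraries named in Z, the WT library had Irf7 at 146 CPM and the Smad4 IEC-KO libraries at 78.1 and 39.0, and among those named in M the WT library had 313 and the Smad4 IEC-KO libraries 77.1 and 133. Stat2, Irf8 and Gbp3 were also lower in both Smad4 IEC-KO water libraries of Z and of M than in the WT water library of that letter. There was 1 WT water library in each of Z and M, and the share of all genes that were lower in this way was not computed. In Z, 1 of the 2 Smad4 IEC-KO libraries is that labelled replicate 1, with Smad4 in the WT range. With the letter as a term in the model of 14 libraries, edgeR called 2030 genes (13.4%), among them Irf7 (-1.49, adjusted p = 0.0167), Stat2 (-0.66, 0.0202) and Irf8 (-0.48, 0.0299). The WT water libraries in Z and M are the 2 with mitochondrial shares of 30.6% and 32.8%, while the Smad4 IEC-KO libraries of these letters were at 4.83% to 8.10% apart from replicate 4 at 21.4%, and the part of this in the differences was not tested.

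DSS against water in WT asked how the 9 genes stood after the injury where Smad4 was intact. The GTPases and Irf1 and Irf8 had higher means after DSS, and Irf7 a lower one, but no gene passed the edgeR threshold in this comparison (0 of 15127, with unadjusted p under 0.05 for 24.2% and 1777 called by DESeq2, 11.7%). Igtp was at 57.6 ± 13.8 CPM on water and 99.1 ± 16.3 after DSS (log2 fold change 0.78, SE 0.19, edgeR adjusted p = 0.0902). Gbp2 was at 51.6 ± 23.98 and 101 ± 30.6 CPM (0.97, SE 0.34, 0.131 in edgeR), Irf1 at 216 ± 30.3 and 284 ± 5.48 (0.40, SE 0.14, 0.132), and Irf8 at 150.02 ± 20.9 and 197 ± 5.25 (0.39, SE 0.13, 0.128). Irf7 was at 187 ± 85.4 and 102 ± 19.4 CPM (-0.87, SE 0.29, edgeR adjusted p = 0.126). Unadjusted p was under 0.05 for these 5 of the 9.

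In WT, Irf1, Irf8 and Igtp were higher in every DSS library than in every water library, as 12.8% of all genes were, and Irf7 was lower, as 11.6% were. DESeq2 called Igtp (adjusted p = 0.00737), Gbp2 (0.0397) and Irf1 (0.0494) higher, as 5.47% of all genes were, and Irf7 (0.0320) lower, as 6.27% were. Gbp3 had a log2 fold change of 0.42 and Irgm1 of 0.26. Stat2 (-0.067) and Irf9 (-0.038) were near 0 and changed sign without WT water replicate 4, to 0.16 and 0.082. Without that library Irf7 was at -0.51. Within the libraries named in D, 2 on water and 2 after DSS, the log2 fold changes were 0.79 for Gbp2, 0.57 for Igtp, 0.55 for Irf8, 0.28 for Irf1, 0.31 for Stat2 and -0.61 for Irf7.

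In Smad4 IEC-KO, Irf1 and Irf8 were again higher in every DSS library than in every water library, which 4.6% of all genes showed. Irf8 was at 117 ± 13.6 CPM on water (n = 4) and 171 ± 8.32 after DSS (n = 3), a log2 fold change of 0.55 (SE 0.14, edgeR adjusted p = 0.523), and Irf1 at 183 ± 24.7 and 259 ± 29.6 (0.50, SE 0.16, edgeR adjusted p = 0.727). Igtp was at 61.6 ± 17.6 and 88.8 ± 11.9 CPM (0.53, SE 0.22). These were the 3 members with an unadjusted p under 0.05, against 6.37% of all genes, and the 1 gene that passed the threshold was again Rpl34 (0.00661%), while DESeq2 called 71 (0.469%), no member among them. Gbp2 had a log2 fold change of 0.17, Gbp3 of 0.22, Irgm1 of -0.074, Stat2 of -0.11, Irf9 of -0.19 and Irf7 of -0.53. No Smad4 IEC-KO water library has a name in D and all DSS libraries of that genotype do, so letter and treatment cannot be told apart here. Without the library labelled replicate 1 of Smad4 IEC-KO on water the values were 0.49 for Irf8, 0.48 for Irf1 and 0.39 for Igtp.

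The response to DSS was then compared between the genotypes in a fit of all 14 libraries. For Gbp2 the log2 response was lower in Smad4 IEC-KO by 0.81 (difference -0.81, SE 0.46, edgeR adjusted p = 0.673), and for Irgm1 the difference was -0.34 (SE 0.19, edgeR adjusted p = 0.676). For Irf7 it was 0.34 (SE 0.49) and became -0.012 without WT water replicate 4. The other 6 members had differences from -0.25 (Igtp) to 0.15 (Irf8). Without the library labelled replicate 1 of Smad4 IEC-KO on water, the difference was -0.87 for Gbp2, -0.40 for Igtp and -0.40 for Irgm1. For Irf7 and Irf8 it was then 0.32 and 0.093. No member passed the threshold, and none had an unadjusted p under 0.05, against 7.5% of all genes, while in edgeR Rpl34 alone passed (0.00661%) and in DESeq2 8 genes did (0.0529%), no member among them.

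The 9 genes did not share 1 pattern over the groups. Stat2, Irf7 and Irf9 had their highest mean in WT on water, then WT after DSS, then Smad4 IEC-KO on water, and their lowest in Smad4 IEC-KO after DSS. This order rested on WT water replicate 4 for Stat2 and Irf9: without it WT on water was at 81.5 CPM for Stat2 and 62.6 for Irf9, below the 90.9 and 66.4 of WT after DSS. For Irf7 it held, at 145 against 102 CPM. Of the neighbours in the order with all libraries, only WT on water and WT after DSS for Irf7 did not overlap. The other 6 had their highest mean in WT after DSS. Irf1 and Irf8 came next in Smad4 IEC-KO after DSS, then in WT and in Smad4 IEC-KO on water, and the neighbours without overlap were Smad4 IEC-KO after DSS and WT on water for Irf1 and the DSS groups for Irf8. For Gbp2 only the DSS groups were neighbours without overlap, and for Gbp3, Igtp and Irgm1 all neighbours overlapped. After standardizing each gene's log2 CPM over the 14 libraries, the pairs with the smallest root mean square difference were Stat2 and Irf7 (0.59 SD), Irf1 and Igtp (0.61), Irf8 and Gbp3 (0.66), Irf7 and Irf9 (0.70), and Gbp2 and Igtp (0.70).

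**Figure D4:**
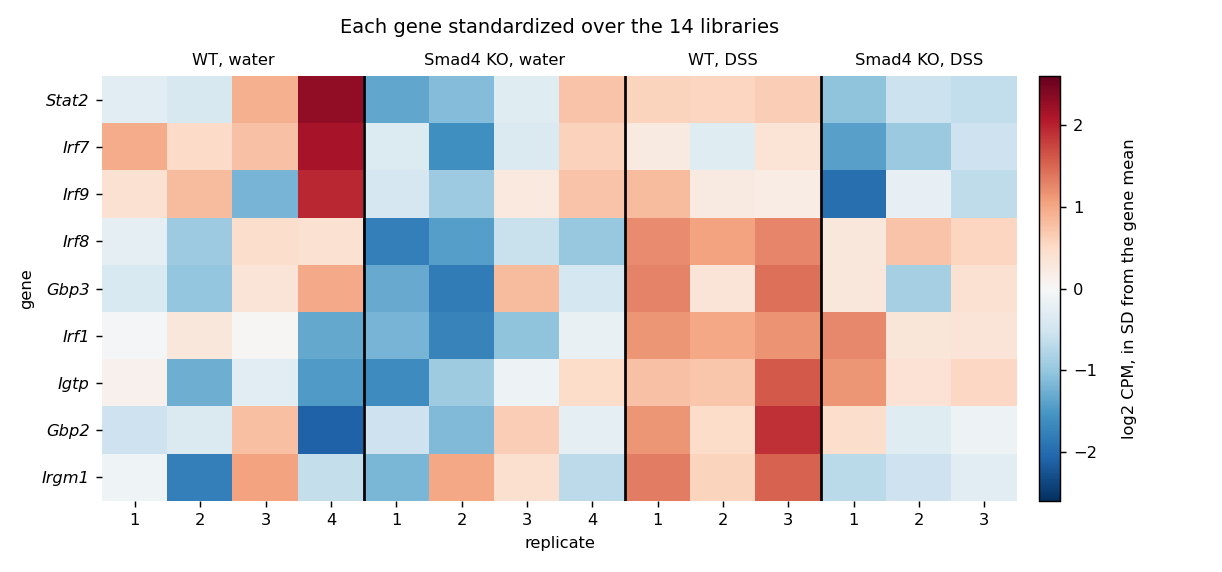
Standardized log2 CPM of the 9 genes (rows) in the 14 libraries (columns, by group and replicate), in SD from the mean of each gene, red above and blue below. Stat2, Irf7 and Irf9 are highest in WT water replicate 4, where Gbp2, Igtp and Irf1 are low, and Stat2, Irf7 and Irf9 are below their means in the 3 Smad4 IEC-KO DSS libraries.

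Ligands of the pathway were hardly counted. Of 20 interferon genes, 14 had no count in any library, no interferon had more than 5 counts in a library, and none was tested. All 20 together had 2 counts in WT on water, 11 in Smad4 IEC-KO on water, 21 in WT after DSS and 17 in Smad4 IEC-KO after DSS, over 4, 4, 3 and 3 libraries. The 9 receptor and kinase genes were all tested. None was called in a comparison of 2 groups or in the difference of responses. Of all genes, edgeR called 0.747% for the knockout against WT after DSS and at most 0.00661% in each other comparison, so few calls were possible. The median log2 fold change of the receptors and kinases was 0.04 for the knockout against WT after DSS and 0.11 for DSS in WT. Interferon-gamma's ligand-binding receptor chain Ifngr1, looked up for its role after values were seen, was at 206 to 240 CPM in the group means.

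In Smad4 IEC-KO against WT after DSS, none of the 4 tested other IRFs, 15 tested other interferon-inducible GTPases and 6 negative regulators was called, and 1 of 12 tested sensors and adaptors was, against 0.747% of all genes called in either direction and 0.416% called lower. That gene was Zbp1, a sensor of Z-form nucleic acids, which fell from a mean of 103 CPM in WT to 68.9 in Smad4 IEC-KO (log2 fold change -0.58, SE 0.098, edgeR adjusted p = 0.0424). This call too lay near the threshold, in a fit that called 113 genes where the model of all 14 libraries called 2. Values of Zbp1 in the alternative fits are not reported here. The other interferon-inducible GTPases had a median of -0.35, with 11 of 15 negative and 6 with an unadjusted p under 0.05 (15.4% of all genes tested), the sensors and adaptors a median of -0.12, the other IRFs 0.03 and the negative regulators 0.05. For DSS in WT, 12 of the 15 other GTPases had a positive log2 fold change, with a median of 0.74 against 0.39 for the 9 members, and none was called in edgeR, where no gene was (0 of 15127).

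**Figure D5:**
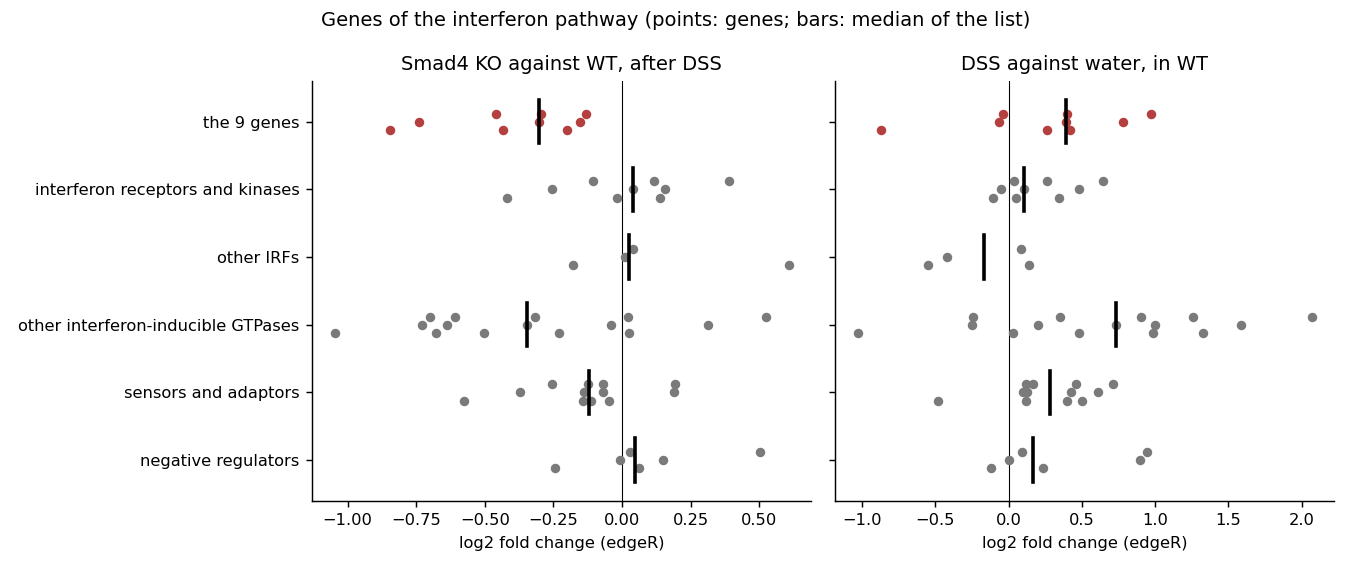
Log2 fold changes (x axis) from the edgeR fits of the knockout against WT after DSS (left, n = 3 and 3) and of DSS against water in WT (right, n = 3 and 4). Each point is a gene, each row a list (y axis) and each bar the median of the list. The 9 genes have a median of -0.30 on the left and 0.39 on the right, and the other interferon-inducible GTPases -0.35 and 0.74.

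Outside these lists, the genes whose standardized log2 CPM over the 14 libraries lay nearest to the mean profile of the 9 were Tap1, the peptide transporter of antigen presentation (root mean square difference 0.53 SD), Btnl2 (0.54), Kif21b (0.55), Trafd1 (0.57) and Tpcn2 (0.58), where the median gene lay at 1.14. Tap1 was at 163 CPM in WT on water, 144 in Smad4 IEC-KO on water, 218 in WT after DSS and 167 in Smad4 IEC-KO after DSS. Of the members, which make up that profile, Gbp3 lay nearest to it (0.51) and Irf9 farthest (0.95).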

How the data were processed

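Poly(A) RNA of isolated colon epithelium was sequenced in 14 libraries. The authors used HISAT2 for alignment (build mm9) and featureCounts for counting, and deposited raw counts per gene, 37680 in all, of which 14001 had no count. The submitters' processing notes name these tools and the build, and strand setting and annotation are not given in the sources used here. Libraries were grouped by their deposited titles. CPM were computed from these counts with TMM factors over all 14 libraries. Positions and exon lengths came from GENCODE M1 (mm9), and symbols from a separate list of gene names, which holds 37310 of the genes. Promoters came from RefSeq (GRCm38.p6) and were not used for counting.

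Tests covered the 15127 genes that reached 10 counts in 3 or more libraries. They were run in edgeR 4.0.16 (R 4.3.3) with TMM normalization, the quasi-likelihood test, two-sided, and Benjamini-Hochberg adjustment over all of them, with a threshold of 0.05. Each comparison was fitted on its 2 groups, and the difference of the responses on all 14 libraries. Alternatives were all libraries in 1 model, DESeq2 1.42.0, RLE size factors, no filter, a minimum of 50 counts, the replicate number or the name letter as a term, libraries named in D alone, and each library left out. A model of 13 libraries, without the library labelled replicate 1 of Smad4 IEC-KO on water, was added after its Smad4 count was known. The scripts were tested on simulated data. The 9 genes, the lists and the main model were chosen with earlier results of these data known. All 9 genes, Smad4, genes of the pathway lists that passed the test and the 5 genes nearest to the mean profile are named by rule. Pathway and marker lists were written by hand, and 1 pathway list is not reported here. Groups overlap where the lowest library of the higher group is not above the highest of the lower. No 2 libraries held the same counts.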

Additional observations from a re-analysis of the deposited data

Results flagged for a closer look

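Smad4 in the library labelled replicate 1 of Smad4 IEC-KO on water was at 158 CPM, and the other 3 Smad4 IEC-KO water libraries were at 35.1 to 46.8 CPM. The gap to the nearest of them was 0.905 of the range of the group, above the critical value of Dixon's test for 4 libraries. The 9 genes and Smad4 were tested in the water groups of both genotypes, 20 groups in all, of which chance flags about 1 in 20, and this was the only one past that value. In that library Irf7 was at 78.1, Stat2 at 57.1 and Irf8 at 103 CPM, inside or below the range of the other Smad4 IEC-KO water libraries. Smad4 IEC-KO against WT on water without it gave log2 fold changes of -1.17 for Irf7, -0.32 for Stat2 and -0.29 for Irf8.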

How the results depend on the processing

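In the knockout against WT after DSS the log2 fold change of each of the 9 genes was negative under all the alternatives, of which libraries named in D alone and no WT DSS replicate 3 are the same fit. Over the 5 comparisons, 738 values of members were recomputed, with that fit counted under both names: 681 kept direction and side of the threshold, 16 passed it newly, 11 no longer did and 30 changed sign, none of a called value. The counts of called genes moved more. For the knockout against WT after DSS (113) they were 2 with all 14 libraries in 1 model, 8 with 13, 499 in DESeq2, 342 without a filter, 2 with the name letter as a term, 42 with libraries named in D alone and 27 to 96 with a library left out (42 without WT DSS replicate 3, 54 without WT DSS replicate 2, 56, 27 and 31 without Smad4 IEC-KO DSS replicates 1, 2 and 3). On water (1) they were 1276, 1151, 768, 37 and 2030 in the same order, and 1 to 1740 with a library left out (13 without replicate 1 and 1740 without replicate 4 of Smad4 IEC-KO water). For DSS in WT (0) they were 1777 in DESeq2, 356 without a filter, 1 with the letter, 9 within D and 0 to 418 with a library left out (418 without WT water replicate 2, 25 without WT water replicate 4). For DSS in Smad4 IEC-KO (1) they were 10 with 14 libraries, 5 with 13, 71 in DESeq2, 16 without a filter and 1 to 3 with a library left out. For the difference of responses (1) they were 8 in DESeq2, 2 without a filter and 1 to 5 with a library left out (5 without Smad4 IEC-KO water replicate 4). The cause was not tested.

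The replicate number as a block gave 57, 473, 54, 15 and 1 called genes in the 5 comparisons, in the order above. Same-numbered libraries had deviation correlations of -0.242 to 0.606, not all of them above 0.1 in any comparison. Not every library correlated best with its own number, so the number was not taken as a pairing in the main fits. The value of 0.606 was that of replicate 4 of WT and of Smad4 IEC-KO on water. Both have names in M and high mitochondrial shares (32.8% and 21.4%), so this pair shares more than a number. The block left Stat2 after DSS at an edgeR adjusted p of 0.0947 and called Irf7 on water at 0.0259.

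With the name letter as a term, values that changed sign were, in Smad4 IEC-KO against WT on water, Gbp2 -0.050, Igtp -0.0058 and Irgm1 -0.026, for DSS in WT Stat2 0.16 and Irf9 0.049, for DSS in Smad4 IEC-KO Stat2 0.44, Irf7 0.17 and Irgm1 0.068, and for the difference of responses Stat2 0.28, Irf1 -0.0037 and Gbp3 0.19. Within Smad4 IEC-KO, letter and treatment cannot be told apart. The values for DSS in that genotype and for the difference of responses therefore take the difference of D from Z and M from the WT libraries. Within D, Stat2 for DSS in WT was 0.31, and with the replicate block it was 0.17, with Irf9 at 0.095 there and Stat2 for DSS in Smad4 IEC-KO at 0.071. With a library left out, the ranges that crossed 0 were, on water, Gbp2 -0.16 to 0.39, Igtp -0.081 to 0.24 and Irgm1 -0.029 to 0.13, for DSS in WT Stat2 -0.17 to 0.16 and Irf9 -0.15 to 0.082, for DSS in Smad4 IEC-KO Stat2 -0.20 to 0.059, and for the difference of responses Stat2 -0.26 to 0.11, Irf7 -0.012 to 0.67 and Gbp3 -0.34 to 0.052. Each member had at least 210 counts in each library.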
